A study of Mus musculus with 6 samples.

Results

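The genes described here encode collagen chains, the subunits of the main structural proteins of the extracellular matrix. They were taken from the array as every probe whose gene name is Col, a number, the letter a and a number, which gave 68 probes of 43 genes among 35019 genes with values. Of these 43 genes, 40 passed the filter on dim signals described below and were tested, 11 of 11 fibrillar chains, 6 of 6 basement membrane chains (collagen IV), 6 of 6 collagen VI chains and 17 of 20 other chains. RNA came from whole testes of male mice, 3 months old, taken 10 days after the scrotum had been held once at 43 °C for 20 min. One group was 3 B6.MRLc1 mice, a congenic strain with the distal part of chromosome 1 of MRL mice, from D1Mit202 to D1Mit403 (67.97 to 81.63 cM), on a C57BL/6 background. The other was 3 C57BL/6 mice (B6), labelled wild type. Both groups were heated, so no value is a response to heat, and the comparison asks how the strains differ at that time. Each array was taken as 1 mouse, because the design text counts 3 of each strain.

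Collagen chains wind around each other into a rope-like helix, which requires glycine in the third place of each amino acid triplet of every chain. Fibrillar collagens form the banded fibres of connective tissue, collagen IV forms the sheet of basement membranes, and collagen VI forms beaded filaments between them and around cells. In testis, a basement membrane and a layer of peritubular myoid cells and fibres surround each seminiferous tubule, and a fibrous capsule, the tunica albuginea, surrounds the organ.

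The arrays read each gene with 60-base probes, whose positions are those of the array annotation on genome build mm9. Among the 68 collagen probes, 2 carried the collagen repeat itself, and these are shown because they make the family's defining feature visible. In each, 6 glycine codons (GG followed by any base, in capitals) stood at the third codon of each triplet of codons from end to end. The Col15a1 probe lies at chr4:47283786-47283845 and the Col25a1 probe at chr3:130270497-130270556, both on the + strand.
Col15a1: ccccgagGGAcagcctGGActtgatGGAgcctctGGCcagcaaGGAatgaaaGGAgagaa
Col25a1: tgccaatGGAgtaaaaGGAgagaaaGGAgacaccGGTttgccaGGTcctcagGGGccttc

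The collagen VI genes Col6a6, Col6a5 and Col6a4 are neighbours on chromosome 9, and the largest difference of the family lay there. The second probes of Col6a5 and Col6a6 are not printed. For that reason of size, the tested probe of each gene and the other Col6a4 probe are shown. All are on the - strand, at chr9:105893016-105893075 for the tested Col6a4 probe, chr9:105974495-105974554 for the other Col6a4 probe, chr9:105765145-105766504 (across a gap in the genome) for Col6a5 and chr9:105676597-105676655 for Col6a6. The longest run of bases that any pair of these probes shared, on either strand, was 7 bases. No base is in capitals, since no stretch was singled out.
Col6a4, tested: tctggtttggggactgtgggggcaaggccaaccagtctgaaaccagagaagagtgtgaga
Col6a4, other: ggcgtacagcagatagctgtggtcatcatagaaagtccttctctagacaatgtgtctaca
Col6a5: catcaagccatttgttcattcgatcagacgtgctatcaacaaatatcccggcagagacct
Col6a6: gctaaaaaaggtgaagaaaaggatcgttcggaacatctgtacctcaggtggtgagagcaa

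Signals are given as log2 of the scanner's processed intensity relative to the 75th percentile of the same array, so 0 means a signal equal to that percentile. A probe was kept if it was well above background by the scanner's flag on at least 3 of the 6 arrays, and a gene was tested through its brightest kept probe. Differences are log2 fold changes, B6.MRLc1 minus B6, each with its standard error (SE) from 1 limma fit over all 25276 tested genes. A gene was called, and is said to have risen or fallen, at a Benjamini-Hochberg adjusted p under 0.05 in that fit. Different probes bind with different strength, so levels are compared between arrays and not between genes. Between 58.0% and 64.7% of spots passed that flag on B6.MRLc1 arrays, and between 68.6% and 69.0% on B6 arrays. The strains also lay in different rows of the slide, so the effects of row and strain cannot be told apart. The labelled tissue bore its markers, with 8 of 8 Sertoli genes and all 4 measured Leydig genes well above background on every array. Of the epididymis markers 4 of 5 (Crisp1, Lcn5, Lcn8 and Adam28) were above background on no array, and Rnase10 was above it on all 6. Summed in units of the 75th percentile, the 5 gave 0.596 to 0.698 on B6.MRLc1 arrays and 0.509 to 0.552 on B6 arrays.

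Of the 40 tested chains 37 were not called, and the largest fitted difference was in collagen VI. In B6.MRLc1 testes 2 chains rose, Col6a4 and Col6a1. Col28a1 was called lower, but it passed the filter through B6 arrays alone, so the size of its difference is not known. That is 3 of 40 chains (7.5%), against 2.63% of all tested genes called in either direction, 0.404% called higher and 2.22% called lower. For 21 chains the arrays of the strains overlapped. The 3 B6.MRLc1 arrays all lay above the 3 B6 arrays for 14 chains, against 14.8% of all tested genes, and all below for 5 chains, against 13.8%. Among the 36 chains well above background on all 6 arrays, 2 were called higher and 0 lower (limma, adjusted over all genes), and the strains were separate for 14 higher and 3 lower chains. The share of separate groups over all genes that bright was not counted. A limma fit limited to genes above background on all 6 arrays called 5 of the 36 chains, 3 higher and 2 lower. It called 525 of 22070 genes, 131 higher and 394 lower. The counts over 40 chains include 4 that passed the filter through B6, where a lower B6.MRLc1 value was favoured. The median difference was 0.15 over the 40 chains and 0.02 over all genes, with 27 of 40 chains (67.5%) above 0, against 54.0% of all genes. By class the median was 0.08 for fibrillar chains, 0.09 for collagen IV, 0.38 for collagen VI and 0.21 for the others. At an unadjusted p under 0.05 there were 16 chains, 10 higher and 6 lower, and 5122 of all genes. With 3 mice a strain, a chain that was not called is not shown to be equal.

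**Figure D1:**
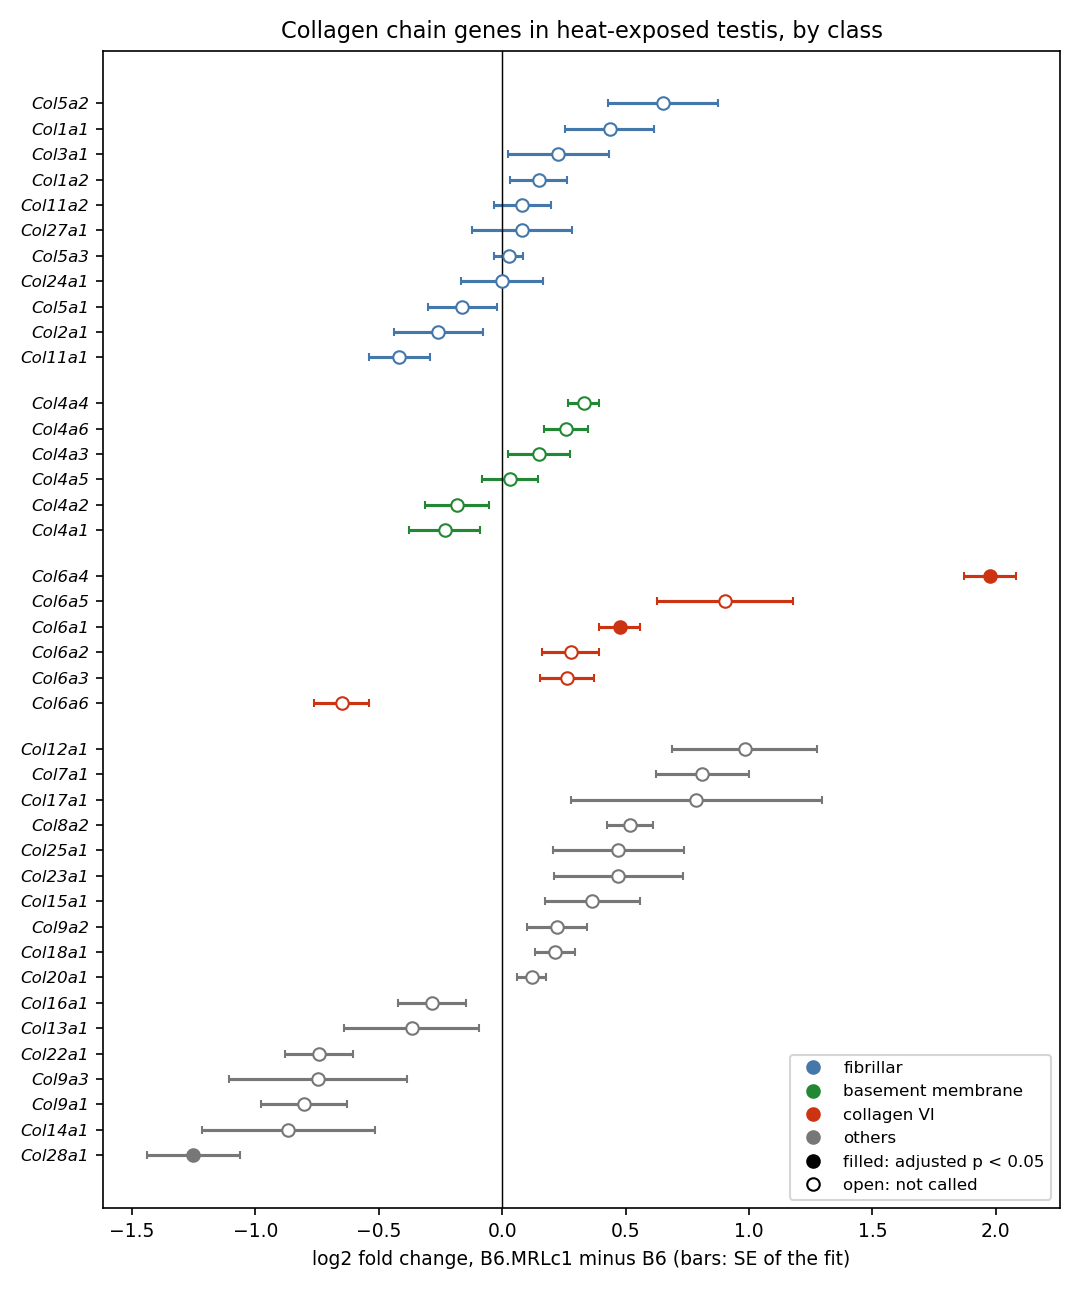
Log2 fold change (B6.MRLc1 minus B6, horizontal axis) of the 40 tested collagen chains, grouped by class, with bars for the SE of the limma fit over 3 arrays per strain. Filled points are the 3 called chains, Col6a4 at 1.98, Col6a1 at 0.48 and Col28a1 at -1.25, and the open points lie between -0.87 and 0.98.

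Collagen VI is assembled from the α1 and α2 chains with a longer chain, α3 or one of its relatives α4, α5 and α6, which can take its place. Of the 6 genes, 2 rose, none fell by the adjusted test, and 5 had a positive difference. Over all tested genes 0.404% were called higher, 2.22% were called lower and 54.0% had a positive difference. Col6a4, the α4 chain, stood at -2.58, -2.91 and -2.82 on the B6.MRLc1 arrays, against -4.84, -4.77 and -4.64 on the B6 arrays. The groups were far apart relative to their spread, the mean ± SD being -2.77 ± 0.17 for B6.MRLc1 arrays and -4.75 ± 0.10 for B6 arrays (n = 3 each). The difference was 1.98 (SE 0.11), or 3.94-fold higher in B6.MRLc1 (limma adjusted p = 0.00622). Col6a4 passed the test when any 1 array was left out. With the normexp background correction, which draws dim signals together, its difference was 0.89, still called (limma adjusted p = 0.00832). All 3 B6 arrays passed the background flag for Col6a4, but their mean lay below the B6 mean of Col28a1 (-4.38). The size of the Col6a4 fold therefore depends on how background is corrected. The other Col6a4 probe, printed above, lies 81.4 kb away at the 5′ side and was well above background on no array of either strain, so the rise rests on 1 probe.

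Col6a1, the α1 chain present in every collagen VI molecule, stood at 3.97, 3.79 and 3.81 on B6.MRLc1 arrays, against 3.47, 3.40 and 3.27 on B6 arrays. The groups did not overlap. The difference was 0.48 (SE 0.08), or 1.39-fold, at an adjusted p of 0.0499 in the limma fit, just inside the threshold. Leaving out any 1 array lost the call, and so did scaling by the array median, while the difference stayed between 0.42 and 0.52 over 17 alternatives.

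Col6a2 and Col6a3, the common partners of α1, were not called. Col6a2 stood at 0.30, -0.02 and 0.20 in B6.MRLc1 and at -0.15, 0.04 and -0.23 in B6, with a difference of 0.28 (SE 0.11, limma adjusted p = 0.254). Col6a3 stood at 1.35, 1.18 and 1.29 in B6.MRLc1, against 1.17, 1.08 and 0.80 in B6, with a difference of 0.26 (SE 0.11, limma adjusted p = 0.26). The strains overlapped for Col6a2 and were separate, narrowly, for Col6a3. A second, dimmer Col6a2 probe had a difference of 0.24 without overlap.

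Among the relatives of α3, Col6a5 and Col6a6 had differences of opposite sign, and neither passed the test. Col6a5 stood at 0.37, -0.47 and -0.14 on B6.MRLc1 arrays, against -1.12, -0.55 and -1.27 on B6 arrays, a difference of 0.90 (SE 0.28, limma adjusted p = 0.156). All B6.MRLc1 arrays were above all B6 arrays, though array 2 of the strains, at -0.47 and -0.55, lay close together. A second Col6a5 probe failed the filter, passing on 1 B6.MRLc1 array and no B6 array. Col6a6 stood at -2.97, -2.83 and -3.08 in B6.MRLc1, against -2.40, -2.42 and -2.12 in B6, a difference of -0.65 (SE 0.11). Its limma adjusted p of 0.0502 was just outside the threshold. Its second probe, 84.7 kb away, had a difference of -1.07 with all 3 B6.MRLc1 arrays below all B6 arrays, and the mean of both probes was called at -0.86 (limma adjusted p = 0.0198). With normexp the Col6a6 difference was -0.29 (limma adjusted p = 0.0909), and that of the second probe was -0.45. Col6a6 was called in 7 of 17 alternatives, and in 0 of the fits that left out 1 array.

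**Figure D2:**
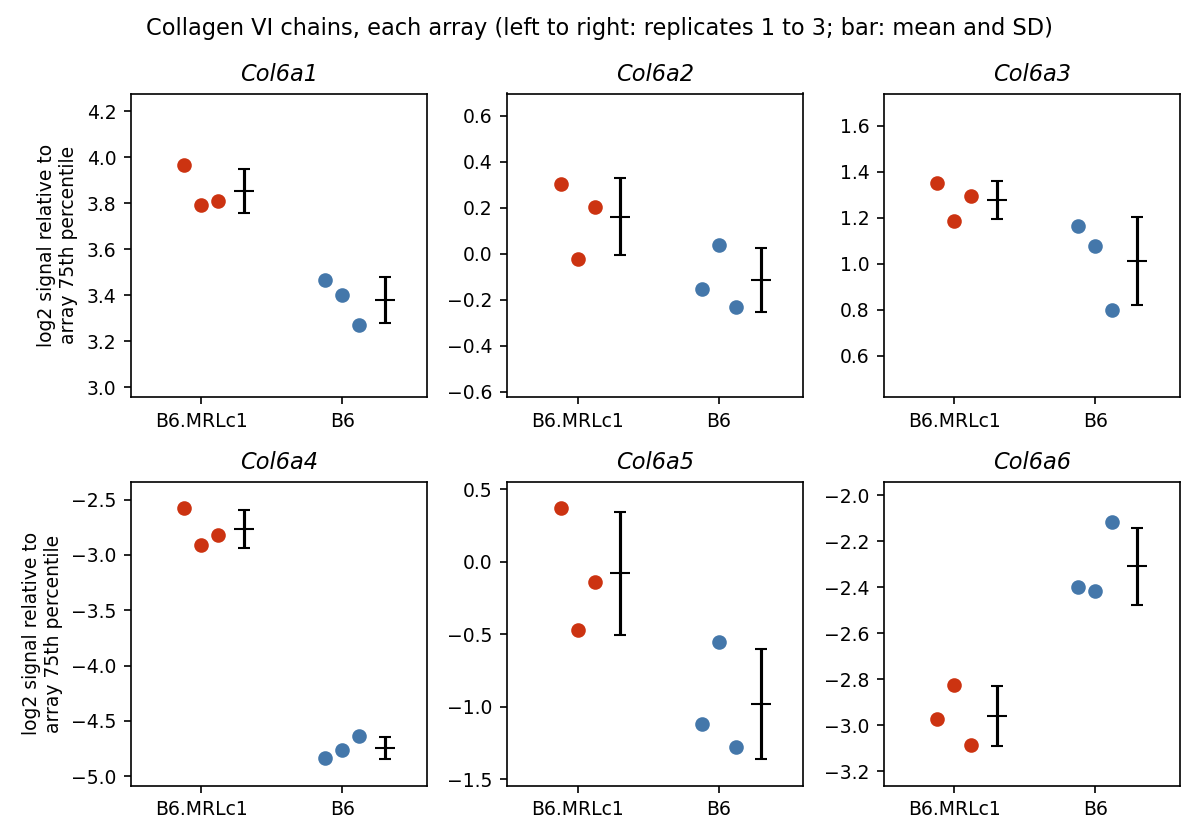
Scaled log2 signal (vertical axis, 0 at the array's 75th percentile, a separate scale per gene) for the 6 collagen VI chains on each B6.MRLc1 array (red, left) and B6 array (blue, right), with mean and SD bars (n = 3). Only Col6a2 overlaps between the strains, Col6a6 alone is lower in B6.MRLc1, and Col6a4 has the widest gap, 1.98. Over all tested genes, the B6.MRLc1 arrays lie all above the B6 arrays for 14.8% and all below for 13.8%.

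The region around the Col6a4, Col6a5 and Col6a6 genes was examined because it lies on chromosome 9, outside the MRL segment. Of the 41 tested genes within 1000 kb of the cluster, 2 were called, Col6a4 and Iqcf4, where 2.63% of all tested genes were called. The window was set around Col6a4, so its own call was in the count from the start. Iqcf4, a gene of the IQ motif family, fell by 2.88 (limma adjusted p = 0.0406). Its neighbours Iqcf1 and Iqcf5 had -2.04 and -3.23, also without overlap, and were not called (limma adjusted p = 0.0912 and 0.0839). The other genes next to the cluster, Pik3r4 on one side and Glyctk on the other, had differences of -0.04 and -0.13 and overlapped between the strains. Chromosome 9 held 6 collagen chains in all, and the remaining 3 were Col5a3, Col7a1 and Col12a1, with differences of 0.03, 0.81 and 0.98. On chromosome 1 there were 7 chains, of which 6 were tested and none was called. The one nearest the MRL segment was Col6a3, whose probe ends at base 92663722, 72.1 Mb from the probe of Fmo1, a segment gene that rose by 1.51 (limma adjusted p = 0.00609).

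None of the 11 fibrillar chains passed the adjusted limma test, with 1 positive and 1 negative chain (Col5a2 and Col11a1) at an unadjusted p under 0.05. Col1a2 and Col1a1 make type I collagen, the main fibre of the tunica and interstitium. Col1a2 stood at 5.51, 5.23 and 5.38 on B6.MRLc1 arrays, against 5.37, 5.27 and 5.05 on B6 arrays, a difference of 0.15 (SE 0.11, limma adjusted p = 0.507). Col1a1 stood at 3.38, 2.78 and 3.25 in B6.MRLc1, against 2.88, 2.71 and 2.52 in B6, a difference of 0.43 (SE 0.18, limma adjusted p = 0.258). Both overlapped between strains. Col3a1, the type III chain that mixes with type I in soft tissue, differed by 0.23 (SE 0.20, limma adjusted p = 0.565).

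Type V and XI chains sit inside fibrils and limit their width. Col5a2 stood at -3.33, -3.35 and -2.81 on B6.MRLc1 arrays, against -3.60, -3.64 and -4.20 on B6 arrays. The strains did not overlap, and the difference was 0.65 (SE 0.22, limma adjusted p = 0.189). Its partner Col5a1 had a difference of -0.16 and overlapped, and Col5a3 had 0.03. Col11a1 was the one fibrillar chain with all B6.MRLc1 arrays (-2.34, -2.59 and -2.33) below all B6 arrays (-1.80, -2.04 and -2.17), at a difference of -0.42 (SE 0.12, limma adjusted p = 0.148). The remaining fibrillar chains, Col2a1, Col11a2, Col24a1 and Col27a1, had differences of -0.26 to 0.08 with overlapping arrays. The sign of Col24a1 and Col27a1 turned under some alternatives, in 5 and 3 of 17.

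Collagen IV genes lie in head-to-head pairs, with starts close together on opposite strands. Both starts of the Col4a1 and Col4a2 pair are in the RefSeq promoter table (assembly GRCm38.p6), in which 35 of the 43 genes were found, and are 21 bases apart on chromosome 8. They are at base 11312826 for Col4a1 and 11312805 for Col4a2, so the annotated transcripts overlap at their 5′ ends. The windows, 250 bases before to 50 after each start, are shown because 1 stretch of 78 bases belongs to both. They lie at chr8:11312777-11313076 (- strand) for Col4a1 and chr8:11312555-11312854 (+ strand) for Col4a2, each printed on its own gene's strand. Capitals mark every match to GGGCGG, the core of the GC box, on either strand, and likewise every match to CCAAT. The letters TATAAA were searched for too and matched in neither window.
Col4a1: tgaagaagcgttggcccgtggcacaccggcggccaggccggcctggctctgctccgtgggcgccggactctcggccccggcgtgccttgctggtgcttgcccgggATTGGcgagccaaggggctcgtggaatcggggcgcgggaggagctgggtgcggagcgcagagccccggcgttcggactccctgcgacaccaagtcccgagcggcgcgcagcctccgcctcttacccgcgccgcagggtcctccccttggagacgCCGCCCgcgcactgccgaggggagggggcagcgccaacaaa
Col4a2: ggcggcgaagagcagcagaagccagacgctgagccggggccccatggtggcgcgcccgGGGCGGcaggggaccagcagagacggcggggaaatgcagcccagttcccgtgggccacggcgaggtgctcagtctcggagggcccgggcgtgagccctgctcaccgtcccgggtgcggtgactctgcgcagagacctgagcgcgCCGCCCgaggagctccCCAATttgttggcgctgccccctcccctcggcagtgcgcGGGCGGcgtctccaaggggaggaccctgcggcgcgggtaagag

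The Col4a1 window held 1 GC box match and 1 CCAAT match, and the Col4a2 window 3 and 1, matches in the shared stretch being counted in both. These motifs are common, since 35.7% of 32851 RefSeq promoter windows of the same length held GGGCGG, 37.4% CCAAT and 13.6% TATAAA. The match is a description of the letters only. For comparison, the starts of Col4a5 and Col4a6 on chromosome X are 1343 bases apart, and their windows do not overlap.

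No collagen IV chain was called. The α1 and α2 chains, found in nearly every basement membrane, had small negative differences with overlapping arrays. Col4a1 stood at 1.63, 1.51 and 1.61 on B6.MRLc1 arrays, against 2.06, 1.88 and 1.51 on B6 arrays, a difference of -0.23 (SE 0.15, limma adjusted p = 0.419). Col4a2 stood at 1.84, 1.64 and 1.81 on B6.MRLc1 arrays, against 2.14, 2.01 and 1.70 on B6 arrays, a difference of -0.18 (SE 0.13, limma adjusted p = 0.473). In both genes B6 arrays 1 and 2 lay above the B6.MRLc1 arrays and B6 array 3 did not.

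The α3 and α4 chains, which form a second network with α5 in kidney and testis basement membranes, had positive differences. Col4a4 stood at 1.67, 1.75 and 1.72 in B6.MRLc1, against 1.31, 1.46 and 1.39 in B6, a difference of 0.33 (SE 0.06, limma adjusted p = 0.061). The strains were separate, and 2 further Col4a4 probes gave 0.63 and 0.42, also with all B6.MRLc1 arrays above. Col4a4 was called in 3 of 17 alternatives. Its pair partner Col4a3 had a difference of 0.15 (SE 0.13, limma adjusted p = 0.536), with overlap. In the pair on chromosome X, Col4a6 had a difference of 0.26 (SE 0.09, limma adjusted p = 0.188) with separate groups, repeated at 0.24 by its second probe, while Col4a5 had 0.03 (SE 0.11) and overlapped.

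**Figure D3:**
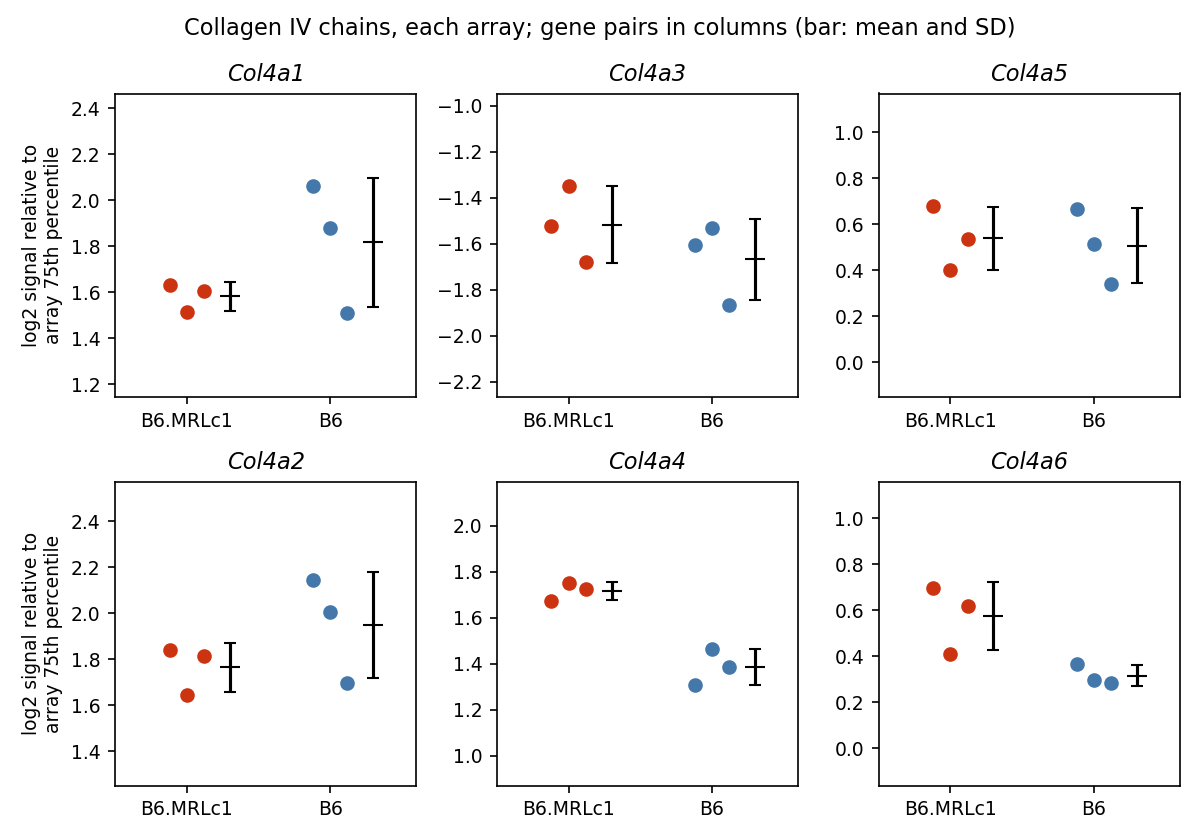
Scaled log2 signal (vertical axis, 0 at the array's 75th percentile, a separate scale per gene) for the 6 collagen IV chains on each B6.MRLc1 array (red, left) and B6 array (blue, right), with mean and SD bars (n = 3); each column is 1 head-to-head gene pair. The pair Col4a1 and Col4a2 has negative mean differences (-0.23 and -0.18), and Col4a4 and Col4a6 lie higher without overlap (0.33 and 0.26).

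Basement membrane partners were read beside collagen IV from a list of laminin chains, nidogens, perlecan and other linkers. Of 28 such genes 26 were tested and limma called 0, and the median difference was 0.10. At an unadjusted limma p under 0.05 there were 6 of the 26, 4 higher and 2 lower, against 5122 of 25276 genes. Lamb1, the laminin β1 chain, averaged 3.96 ± 0.07 on B6.MRLc1 arrays and 3.72 ± 0.04 on B6 arrays (SD, n = 3 each; limma adjusted p = 0.11). Lamc3, a laminin γ chain, averaged 3.04 ± 0.02 on B6.MRLc1 arrays and 2.78 ± 0.11 on B6 arrays (limma adjusted p = 0.131). Pxdn, the peroxidase that cross-links collagen IV, had a difference of -0.31 (SE 0.07, limma adjusted p = 0.0895). Smoc2, a matricellular protein, had -0.66 (SE 0.17, limma adjusted p = 0.113). For these 4 genes, picked by smallest p, the arrays of the strains did not overlap. Over the 26 genes the strains were separate for 8 higher and 2 lower genes, against 14.8% and 13.8% of all tested genes.

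Among the other collagens, differences ran from -1.25 to 0.98. Col7a1, which forms the fibrils that tie a basement membrane to the stroma below, stood at 1.40, 1.05 and 1.60 on B6.MRLc1 arrays, against 0.39, 0.39 and 0.84 on B6 arrays. The groups were separate, with a difference of 0.81 (SE 0.19, limma adjusted p = 0.0937). Col12a1 coats the surface of type I fibrils and stood at -2.48, -1.75 and -1.87 in B6.MRLc1, against -2.77, -3.54 and -2.74 in B6. It too was separate, at 0.98 (SE 0.29, limma adjusted p = 0.149). Neither passed the test.

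Col22a1, a fibril-associated collagen of tissue junctions, stood at 0.24, 0.43 and 0.35 on B6.MRLc1 arrays, against 1.37, 0.97 and 0.91 on B6 arrays. The groups were well apart, but the difference of -0.74 (SE 0.14) had a limma adjusted p of 0.0559. A second Col22a1 probe gave -1.06, also without overlap, and Col22a1 was called in 4 of 17 alternatives. Col16a1 stood at 1.81, 1.62 and 1.71 in B6.MRLc1, against 2.28, 1.91 and 1.80 in B6, a difference of -0.28 with overlap (SE 0.14, limma adjusted p = 0.312). Col14a1, another chain of the fibril surface, differed by -0.87 (SE 0.35, limma adjusted p = 0.245), and its second probe by -0.16, both with overlap. Over the 8 tested fibril-associated chains 3 differences were positive and 5 negative, and none was called.

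Col28a1, a chain with von Willebrand factor domains described around peripheral nerve, was the one collagen chain called lower. It stood at -5.28, -5.97 and -5.66 on B6.MRLc1 arrays, against -4.29, -4.56 and -4.29 on B6 arrays. The fitted difference was -1.25 (SE 0.19, limma adjusted p = 0.0389). The probe passed the background flag on no B6.MRLc1 array, so the size of the difference is not known. B6 was 1.47-fold higher when its mean was set against, per B6.MRLc1 array, the higher of the probe's own signal and a floor. The floor was the lowest signal well above background of any probe on that array. It is not the detection limit of this probe, so 1.47 is not a lower limit. With normexp the difference was -0.17 and the call was lost (adjusted p = 0.295), and it was lost when any 1 array was left out.

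Detection matters for 4 tested chains that passed the filter only through B6, namely Col28a1, Col9a1 and Col9a3 (flagged above background on 0 B6.MRLc1 arrays and 3 B6 arrays) and Col13a1 (1 and 3). Their fitted differences were all negative. Col9a1, a chain of the cartilage collagen IX, stood at -5.86, -5.67 and -5.79 in B6.MRLc1, against -5.19, -4.58 and -5.15 in B6. Its fitted difference of -0.80 (limma adjusted p = 0.0806) was -0.06 with normexp, and no fold can be given. The other 36 chains were well above background on all 6 arrays. The 3 chains that failed the filter were Col8a1, Col10a1 and Col19a1, with at most 1 array above background for any probe.

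**Figure D4:**
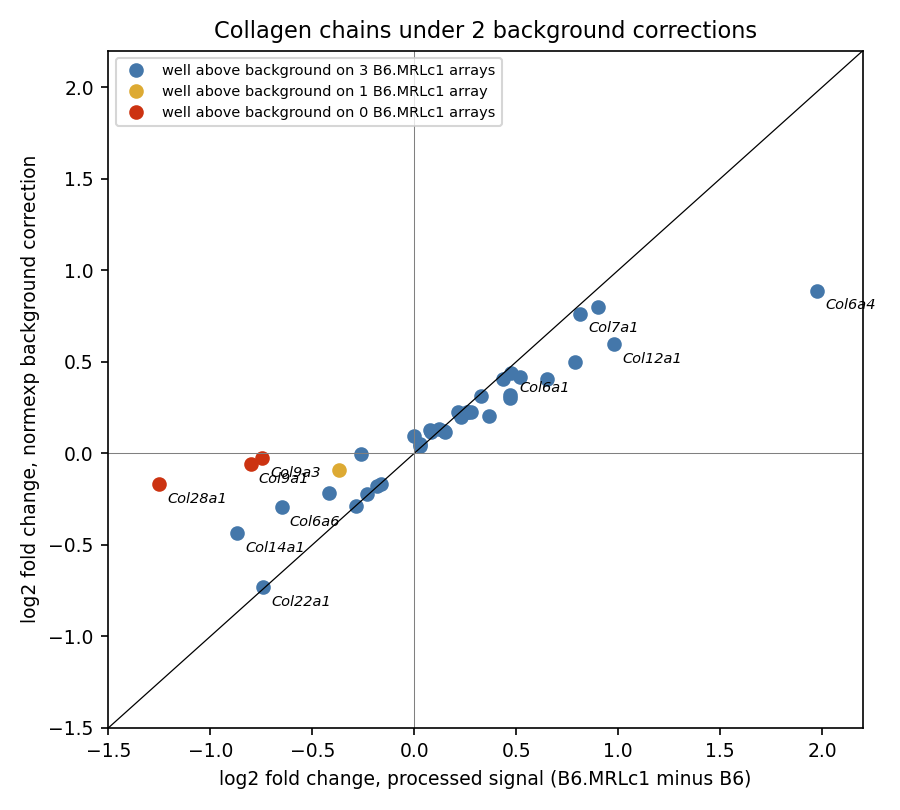
Log2 fold change (B6.MRLc1 minus B6) of the 40 tested chains from the processed signal (horizontal axis) and after normexp correction (vertical axis), coloured by how many B6.MRLc1 arrays passed the background flag; the diagonal marks equality. No chain changes sign between the corrections, Col6a4 has 1.98 and 0.89, and the 3 chains seen on 0 B6.MRLc1 arrays lie near 0 after normexp, Col28a1 at -0.17.

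The remaining chains are cell-surface, vascular and network-forming collagens. Col18a1, the precursor of endostatin in vessel and tubule basement membranes, stood at 3.99, 3.93 and 3.92 on B6.MRLc1 arrays, against 3.80, 3.82 and 3.58 on B6 arrays. The groups were separate but close, at 0.21 (SE 0.08, limma adjusted p = 0.221), and the second probe gave 0.32. Col8a2, a short network-forming chain of endothelial and corneal basement membranes, had 0.52 (SE 0.09, limma adjusted p = 0.0525) without overlap, whereas its second, dimmer probe gave 0.01 with overlap. Col17a1, a transmembrane chain of hemidesmosomes, differed by 0.79 (SE 0.51, limma adjusted p = 0.435), and B6.MRLc1 array 3 at -2.06 stood apart from the other B6.MRLc1 arrays at -3.90 and -3.62. The other transmembrane chains, Col13a1, Col23a1 and Col25a1, had -0.37, 0.47 and 0.47, none called. Col9a2 and Col20a1 had 0.22 and 0.12 with separate groups.

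Of the 43 genes, 18 had more than 1 probe, and 13 had at least 2 that passed the filter. In 11 of these 13 all passing probes gave differences of the same sign, and in 2 they did not. Col15a1, a basement membrane zone chain, had 0.36 at the brightest probe, the one printed above, and 0.17 and -0.33 at the others, all with overlap. For Col25a1 the brightest probe gave 0.47 with separate groups and the probe printed above gave -0.28 with overlap. That printed probe passed the background flag on 0 B6.MRLc1 arrays and 3 B6 arrays. Its 2 other probes were above background on no array.

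Genes that make, bind and break down collagen were read in the same fit, by role. Of 73 listed genes 63 were tested, 1 rose and 3 fell. That is 6.35% of the tested list, against 2.63% of all genes, and the median difference was -0.03. The strains were separate for 14 higher and 13 lower genes of the 63, against 14.8% and 13.8% of all tested genes. Ogn, osteoglycin or mimecan, a small proteoglycan that binds collagen fibrils, stood at 2.94, 3.12 and 3.07 on B6.MRLc1 arrays, against 2.34, 2.34 and 2.41 on B6 arrays. It rose by 0.68 (SE 0.07, limma adjusted p = 0.0197). Comp, cartilage oligomeric matrix protein, which also binds fibrils, stood at -3.47, -3.46 and -3.42 in B6.MRLc1, against -1.96, -2.52 and -2.17 in B6. It fell by 1.23 (SE 0.14, limma adjusted p = 0.0246), and by 0.64 with normexp. The other 11 tested fibril-binding genes were not called.

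P4ha2, a subunit of the prolyl hydroxylase that stabilises the collagen helix, fell by 0.38 (SE 0.06, limma adjusted p = 0.0374), with 1.65, 1.75 and 1.66 in B6.MRLc1, against 2.08, 2.02 and 2.10 in B6. Colgalt1, which adds galactose to hydroxylysine, had -0.28 (SE 0.05, limma adjusted p = 0.0526). Timp1, an inhibitor of the metalloproteinases that cut collagen, fell by 1.00 (SE 0.17, limma adjusted p = 0.048), with 3.41, 3.37 and 3.23 in B6.MRLc1, against 4.59, 4.44 and 3.98 in B6. For these 3 genes, named as called or of smallest p, the strains did not overlap. Leaving out 1 array kept the call of Ogn in 3 of 6 cases, of Comp and Timp1 in 1 of 6 each and of P4ha2 in none.

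Chaperones, export genes, propeptide proteases, lysyl oxidases and receptors had no called member. The 2 genes of smallest p were Creb3l1 (0.35, limma adjusted p = 0.051) and Ppib (0.22, adjusted p = 0.133) for folding and export. They were Pcolce (-0.36, limma adjusted p = 0.102) and Tll1 (-0.18, adjusted p = 0.134) for propeptide removal. Tll1 depended on the setting, at -0.98 with the mean of its probes (limma adjusted p = 0.0678) and -0.02 with normexp. Loxl1 and Loxl3, the lysyl oxidases, had 0.19 and 0.07. The receptors Ddr2 and Cd36 had -0.83 and 0.71 (limma adjusted p = 0.0825 and 0.125), and Mmp14, a membrane collagenase, had 0.20. The tested Ddr2 probe lies on chromosome 1, distal to that of Fmo1, and the mean of the Ddr2 probes gave -0.57 (limma adjusted p = 0.145). Of these 9 genes Mmp14 and Loxl3 overlapped between strains and the others did not, but picking by smallest p favours separate groups.

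**Figure D5:**
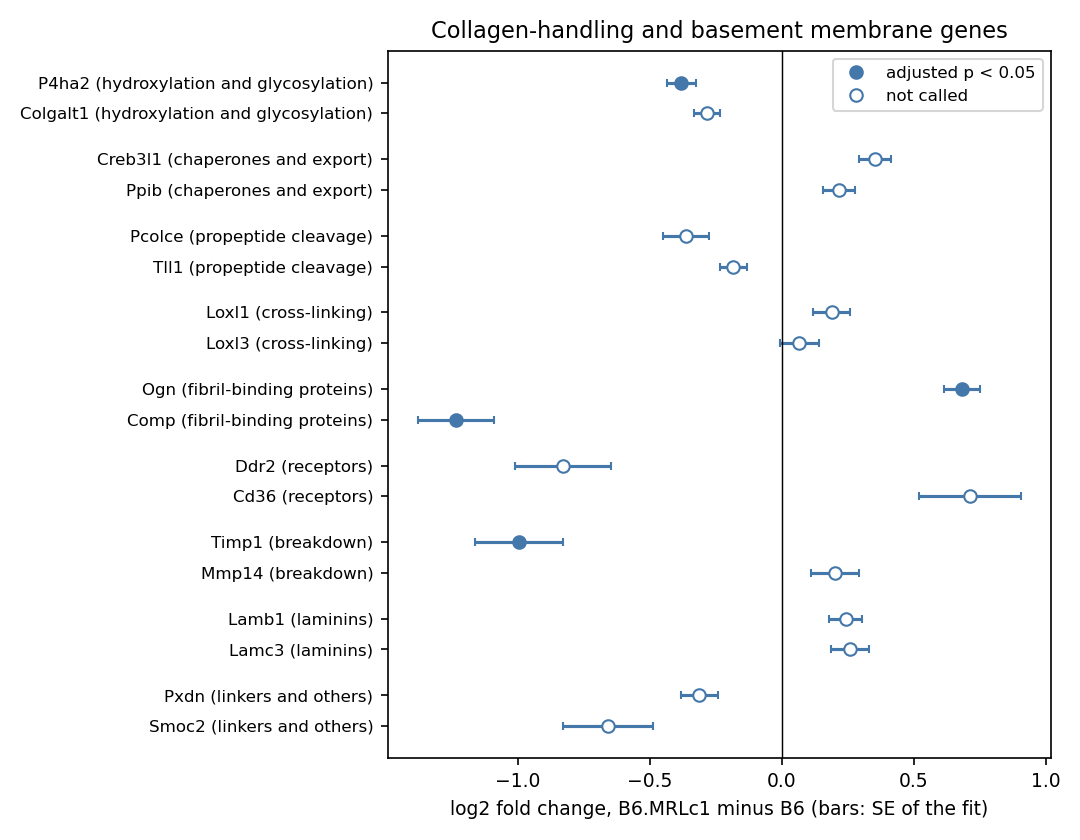
Log2 fold change (B6.MRLc1 minus B6, horizontal axis) of named collagen-handling and basement membrane genes, with the role in brackets and bars for the SE of the limma fit (n = 3 arrays per strain). The filled points are the 4 called genes, Ogn at 0.68 and, below 0, P4ha2, Timp1 and Comp, with Comp lowest at -1.23.

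Cell type markers moved with strain beside these results, and in whole-testis RNA fewer cells of a type and less RNA per cell cannot be told apart. The summed signal of 9 spermatid markers, in units of each array's 75th percentile, was 3.01 to 6.69 on B6.MRLc1 arrays and 15.3 to 43.3 on B6 arrays, and 2 of the 9 were called lower. The 5 spermatocyte markers summed to 7.82 to 9.13 in B6.MRLc1 and 11.7 to 15.8 in B6, with 1 called lower, and the 4 spermatogonia markers to 20.5 to 23.8 in B6.MRLc1 and 18.7 to 20.4 in B6, with none called. Somatic markers were summed in the same way. The 7 peritubular myoid markers summed to 216 to 226 in B6.MRLc1 and 198 to 200 in B6, without overlap, and the 8 Sertoli markers to 568 to 600 in B6.MRLc1 and 515 to 584 in B6. The 6 fibroblast and tunica markers summed to 74.1 to 89.6 in B6.MRLc1 and 88.8 to 96.7 in B6, whereas their median log2 difference was 0.15, of opposite sign to the sums. Most of each sum came from Dcn, with a difference of -0.30, while Lum of the same list had 0.42. Both also belong to the collagen-handling list, so the sum is not a separate measure. None of the myoid, Sertoli or fibroblast genes was called. Adipocyte markers summed to 6.29 to 12.6 in B6.MRLc1 and 3.47 to 5.74 in B6, with Lep above background on no array. The part of cell composition in the collagen differences was not tested. On the collagen VI score, the median over the 6 chains of the signal minus each chain's mean over all arrays, B6.MRLc1 arrays had 0.31, 0.05 and 0.19 and B6 arrays -0.16, -0.05 and -0.35. This class was singled out from these same values, so its score is not a separate measure. Over all tested chains the score was 0.08, -0.04 and 0.06 on B6.MRLc1 arrays and -0.02, -0.02 and -0.17 on B6 arrays, with overlap. The scores of the fibrillar, collagen IV and other classes overlapped too.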

How the data were processed

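Total RNA of 6 testes was labelled with Cy3 and hybridised to 1-colour Agilent arrays on 1 slide with 1 scan, per the labels' protocols and the file headers. The scanner tables deposited by the authors give a linear intensity for each spot, background-subtracted and detrended, with 0 or 1 scores as flags for spots well above background, per the file headers. The headers name Feature Extraction 10.7.3.1 and the submitters' processing notes 9.5.3, and which made the values is not known. How the authors made their deposited table of log2 values is not stated in labels or headers. It had column medians of 0.00474, 0.00986 and 0.0161 for B6.MRLc1 arrays 1 to 3 and -0.00297, -0.00405 and 0.0144 for B6 arrays 1 to 3, and served as an alternative. At least 99.9% of its values lay within 0.05 of the scaled log2 signal minus the probe's median.

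Here control spots and outlier spots were dropped, each array's processed signal was divided by its 75th percentile over all non-control spots, log2 was taken and spots of a probe were averaged (Col4a1 had 10). Of 55681 probes, 36627 had values on at least 4 arrays and were well above background on at least 3. Names came through RefSeq accessions for 27235 probes, symbols for 3581 and the file alone for 24865. The fit used limma 3.58.1 under R 4.3.3 (lmFit, then eBayes), and was also run on simulated data. Alternatives were normexp background correction (offset 50), median and quantile scaling, other dim-probe filters, the mean of a gene's probes, the deposited table, a variance trend, array weights, the replicate number as a block, and leaving out each array. A 75th percentile over unflagged spots was added after seeing the data. No spot was saturated. The number of arrays limits the precision.

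The members and gene lists were chosen with earlier results of these data known. Values are given array by array for called chains, the 2 brightest chains of each class and chains with separate groups and at least a 1.5-fold difference. For the other lists the called genes and the 2 of smallest p in each role are named. Further chains were chosen after their values were seen. Both strains use replicate numbers 1 to 3, which are also the slide column. Same-numbered arrays' deviations correlated at -0.044, 0.172 and 0.088, and the main fit did not pair samples by number. Across the strains, however, the arrays numbered 2 were each other's best match, and so were those numbered 3, unlike those numbered 1. Whether the number or the slide column pairs the samples is not settled.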

Additional observations from a re-analysis of the deposited data

How the results depend on the processing

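The median collagen difference stayed between 0.11 and 0.21 when 1 array was left out. Collagen calls, 3 as reported, numbered 5 with normexp, 5 with probes above background on all arrays, 8 with a variance trend, 9 with array weights, 1 with quantile scaling and 1 without a filter, and 1 to 1 with any 1 array left out. With median scaling and with the percentile over unflagged spots, chosen after seeing the data, the 3 calls were 1 higher (Col6a4) and 2 lower (Col6a6 and Col28a1). Calls among collagen-handling genes, 4 as reported, numbered 7 with normexp, 9 with a trend, 9 with weights, 0 without a filter (limma, 19 at an unadjusted p under 0.05) and 0 to 3 with 1 array left out. Basement membrane partners had 1 with normexp, 1 with the mean of probes, 2 with a trend, 3 with weights and 0 to 0 with 1 array left out. Over all genes, 664 as reported (102 higher, 562 lower), there were 889 with normexp (278 higher, 611 lower), 1202 with a trend, 1607 with weights, 50 without a filter and 50 to 486 with 1 array left out, lowest without B6 array 1. The deposited table called 486 (146 higher, 340 lower). With the replicate number as a block limma called 0 of 25276 genes, 0 collagen chains, 0 handling genes and 0 partners, with 4866, 16, 21 and 7 at an unadjusted p under 0.05. In that block fit Col6a4 had a limma adjusted p of 0.0789, so its call depends on leaving the shared numbers unpaired. Whether they pair the samples is not settled. Col6a4 was called in 16 of 17 alternatives, Col6a1 in 5 of 17 and Col28a1 in 5 of 15. No called chain reversed. Signals near background limit Col28a1, Col9a1, Col9a3 and Col13a1, and dim B6 signals limit the size of the Col6a4 difference. The causes of these differences between settings were not tested.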

Other observations

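Col26a1, a collagen chain carried on the array under the older name Emid2 and so not among the 43 genes, stood at -3.71, -4.05 and -3.55 on B6.MRLc1 arrays, against -2.16, -2.30 and -3.17 on B6 arrays. The strains did not overlap, with a difference of -1.22 (SE 0.29, limma adjusted p = 0.1), or -0.58 with normexp. It was not called.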
